A study of Mus musculus with 59 samples.

Results

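The VH1 genes of the region that the Igh Δ890 allele lacks were selected by name, as every entry of the VDJ-seq files called IGHV1-n with n from 48 to 79, with or without a further suffix such as IGHV1-62-2. This gave 35 of the 253 VH gene names in these files, and all 35 were among the 233 names listed in every library. A further 58 IGHV1 genes that were listed in every library lie outside the deleted region. By the RefSeq annotation, 28 of the 35 genes are V segments and 7 are V segment pseudogenes. The exons of the 26 genes that could be matched to the mm9 annotation lie between the lox sites that the study's methods give for the deletion, on the minus strand of chromosome 12.

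VDJ-seq was performed with ex vivo-sorted bone marrow pro-B cells of 1 mouse per library. Of 48 libraries, 41 were used, 17 from Igh(+/+) mice and 24 from mice homozygous for a mutant allele, with 3 libraries for each of 8 genotypes. Every mutant allele carries the 890-kb deletion, made on the C57BL/6 Igh allele in hybrid ES cells of C57BL/6 and another strain, and the constructs were inserted at the deletion point. Igh(Δ890/Δ890) carries no regulatory insert. Igh(P4/P4) carries the PAIR4 element, a distal regulatory element of the locus, and Igh(P4inv/P4inv) carries it in inverted orientation. Igh(P4StopG/P4StopG) has polyadenylation sites and Gfp in the first exon of the PAIR4 transcript. Igh(P4V/P4V) contains PAIR4 together with the VH8-7 gene and its V8.7E element, Igh(P4GV/P4GV) contains PAIR4 linked to Gfp and V8.7E, and Igh(P4ΔPax5GV/P4ΔPax5GV) is the latter with a mutated Pax5-binding site in PAIR4. Igh(EmG/EmG) carries the Eμ enhancer linked to Gfp. The labels give neither the age nor the sex of the mice. The Igh(+/+) libraries were compared with mutants of the same block, a run of consecutive experiment numbers in the labels. Igh(+/+) replicates 1 to 3 with Igh(Δ890/Δ890) formed block 1, replicates 4 to 6 with Igh(P4V/P4V) and Igh(P4/P4) block 2, and replicates 13 to 15 with Igh(P4GV/P4GV) block 3. Igh(+/+) replicates 7 to 12 with Igh(P4inv/P4inv), Igh(P4StopG/P4StopG) and Igh(EmG/EmG) formed block 4, and replicates 17 and 18 with Igh(P4ΔPax5GV/P4ΔPax5GV) block 5. The labels do not say whether a block is a sequencing run.

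In 3 pairs of libraries with conflicting genotype labels the values were identical, and 1 further library labelled Igh(+/+) is listed under a mutant genotype in the source data of the study. These 7 libraries were left out, among them all 3 labelled Igh(P4ΔCtftGV/P4ΔCtftGV), so that no library of this ninth mutant genotype was used. Of the libraries used, Igh(+/+) replicate 9 stood apart. Its VH genes summed to 78.8% of the joints, compared with 33.8 to 56.8% in the other 16 Igh(+/+) libraries, and the order of the genes is also given without it.

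Recombination of the heavy-chain locus joins first a DH to a JH segment and then 1 of many VH genes to the DJH joint. The RAG recombinase cuts at the recombination signal sequence (RSS) behind each VH gene, which consists of a heptamer, a spacer and a nonamer. VH1, the J558 family, is the largest VH gene family of the mouse and fills most of the distal part of the locus. Its genes are close paralogs, and their use in pro-B cells depends on Pax5 and on contraction of the locus. A deletion removes the DNA of a gene, so that joints of the 35 genes cannot be formed on an allele that lacks them. Usage is given here as the percentage of all unique VDJH and DJH joints of a library.

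For 24 of the 35 genes, a heptamer was found directly behind the V exon in the mm9 genome. The heptamer was CACAGTG in 23 of them and CACAGCG in IGHV1-61. The nonamer varied more, with CAGAAACCC in 16 genes. The RSSs of the 4 genes with the highest usage are shown with those of the fifth (IGHV1-75), of IGHV1-61 and of the little used IGHV1-56. Capitals mark the heptamer and the nonamer, and the lower-case letters between them are the spacer of 23 bases.
IGHV1-72 (chr12:116996156-116996194, minus strand): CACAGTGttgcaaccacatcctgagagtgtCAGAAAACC
IGHV1-64 (chr12:116745717-116745755, minus strand): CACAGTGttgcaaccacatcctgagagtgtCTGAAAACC
IGHV1-55 (chr12:116446267-116446305, minus strand): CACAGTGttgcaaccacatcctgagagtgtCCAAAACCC
IGHV1-67 (chr12:116842112-116842150, minus strand): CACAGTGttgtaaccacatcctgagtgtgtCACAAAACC
IGHV1-75 (chr12:117072122-117072160, minus strand): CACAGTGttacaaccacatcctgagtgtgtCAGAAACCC
IGHV1-61 (chr12:116597312-116597350, minus strand): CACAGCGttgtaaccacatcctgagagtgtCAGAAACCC
IGHV1-56 (chr12:116480974-116481012, minus strand): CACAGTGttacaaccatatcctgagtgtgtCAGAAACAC

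IGHV1-72, IGHV1-64, IGHV1-55 and IGHV1-67 were the 4 most used of the 35 genes in Igh(+/+) pro-B cells. The lowest usage of IGHV1-72 in 17 libraries was 0.471%, the median 0.678% and the highest 1.82% of the joints. IGHV1-64 ranged from 0.548% through a median of 0.696% to 2.14%, and IGHV1-55 from 0.461% through 0.638% to 2.02%. IGHV1-67 ranged from 0.343% through 0.634% to 0.822%. For the first 3 genes the highest value was that of replicate 9, whereas IGHV1-67 was highest in another library. The means were 0.790% ± 0.311 for IGHV1-72, 0.780% ± 0.373 for IGHV1-64, 0.722% ± 0.354 for IGHV1-55 and 0.610% ± 0.120 for IGHV1-67 (SD, n = 17). IGHV1-72 was the highest of the 35 genes in 6 libraries, IGHV1-67 in 5, IGHV1-64 in 4 and IGHV1-55 in 2, so that the order among these 4 genes differed from mouse to mouse. Together they took 32.2% ± 1.18 of the summed usage of the 35 genes.

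Behind these genes the means declined in small steps down to IGHV1-79. IGHV1-75 (0.483% ± 0.247), IGHV1-49 (0.457% ± 0.0745), IGHV1-53 (0.455% ± 0.214), IGHV1-69 (0.442% ± 0.150), IGHV1-52 (0.396% ± 0.128) and IGHV1-76 (0.384% ± 0.206) completed the first 10 (SD, n = 17), which took 61.3% ± 1.4 of the summed usage. The next 16 genes ran from IGHV1-50 (0.384%) down to IGHV1-77 (0.10%), IGHV1-56 (0.0853%), IGHV1-71 (0.0835%) and IGHV1-79 (0.0751%). These 26 genes were above 0 in each of the 17 libraries and their means covered a 10.5-fold range. Over the 28 steps from each used gene to the next in the order, means differed by more than the larger SD of the pair in 2 steps, between IGHV1-79 and IGHV1-48 and between IGHV1-51 and the genes at 0. Without replicate 9, which widens the SDs, 4 steps passed, the further 2 being those from IGHV1-67 (0.616% ± 0.121) to IGHV1-49 (0.463% ± 0.0716) and from IGHV1-61 (0.174% ± 0.0291) to IGHV1-58 (0.133% ± 0.0278; SD, n = 16). The values of neighbours come from the same libraries, and IGHV1-61 was above IGHV1-58 in each of the 17. For the other 24 of the 25 steps within the 26 genes, the order of the neighbours was not the same in all 17 libraries.

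Among the remaining 9 genes, joints were rare or not listed. The pseudogene IGHV1-48, which borders the deletion on the side of the proximal genes, had a mean of 0.00582% and was above 0 in 14 of 17 libraries. The pseudogene IGHV1-51 had a mean of 0.00429% and was above 0 in 16 of 17. IGHV1-57, IGHV1-60, IGHV1-62, IGHV1-62-1, IGHV1-65, IGHV1-68 and IGHV1-73 were listed at 0 in every Igh(+/+) library. Of these 7 genes, 5 are annotated as pseudogenes, and the annotated V exons of the other two, IGHV1-62-1 and IGHV1-73, are truncated in the mm9 annotation with no heptamer at their end. All 7 pseudogenes thus stood at the end of the order, whereas 26 of the 28 V segments were used. The files give no number of joints, and a gene at 0 may have joints below the depth of a library. In each of the 41 libraries used, all values above 0 were whole multiples of 1 step (tolerance 1e-06), which was 0.000312 to 0.000549% in Igh(+/+) libraries. A smaller step goes with more joints, but what a step is worth is not stated, so that no counts were derived. The smallest value above 0 in an Igh(+/+) library was between 0.00069% and 0.00110%.

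**Figure D1:**
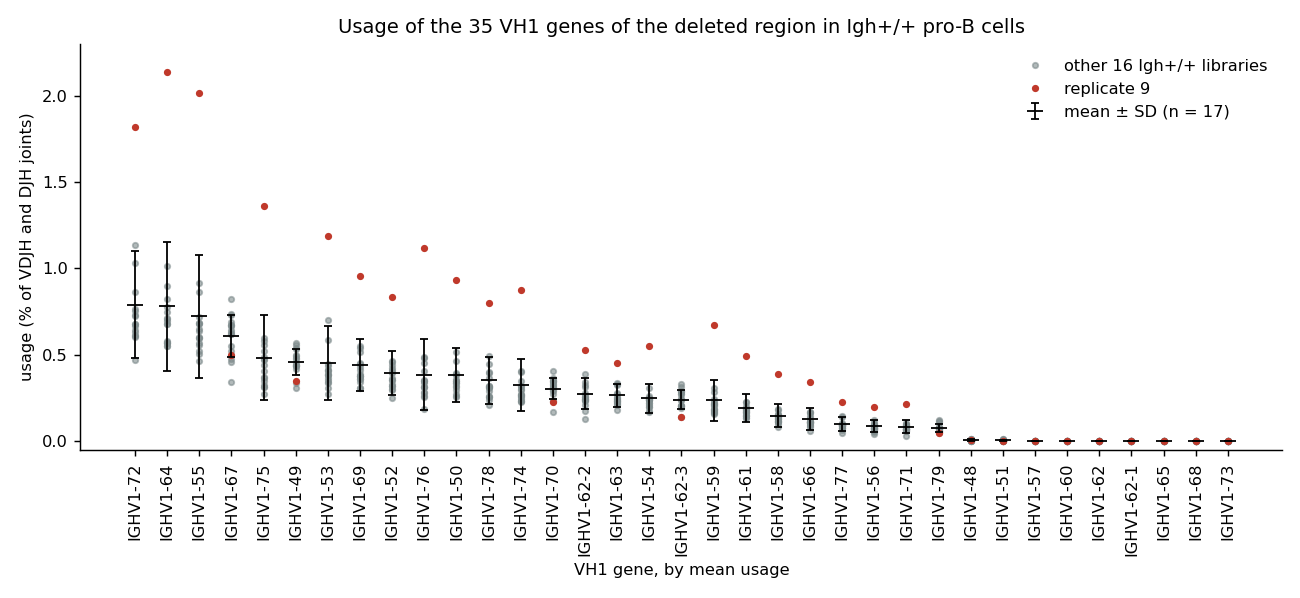
Usage of each of the 35 VH1 genes in Igh(+/+) pro-B cells as a percentage of VDJH and DJH joints, with genes ordered by mean usage along the horizontal axis. Points are libraries, replicate 9 is in red, and the black lines are the mean and SD of 17 libraries. The first 4 genes have means of 0.610 to 0.790%, replicate 9 lies above the other libraries for most genes, and the last 7 genes are at 0.

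Compared with all VH genes, IGHV1-72 was in place 9 by mean usage in Igh(+/+) pro-B cells, IGHV1-64 in place 10, IGHV1-55 in place 13 and IGHV1-67 in place 19. Of the 20 most used VH genes, 4 were therefore genes of the deleted region, and of the first 50, 11 were. Without replicate 9 the places were 10, 12, 14 and 16, and 4 of the first 20 and 10 of the first 50 were genes of the region. The order of the 28 used genes was alike between libraries, as Spearman's rho between pairs of Igh(+/+) libraries had a median of 0.958 and a range of 0.714 to 0.989. These coefficients are across genes, which are not independent replicates. Usage showed little relation to position. Over the 849869 bases between the starts of the outermost of these genes (mm10), rho between mean usage and start was 0.0739 (n = 28 genes). The same 4 genes led under each of the 9 other settings, which included usage as a percentage of VDJH joints, the omission of each block in turn and the omission of replicate 9. IGHV1-67 stood before IGHV1-55 when block 4 was left out.

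The 4 leading genes were also the 4 of the 24 with an RSS whose nonamers contain a run of 4 adenines (AAAA, searched in the nonamer in the orientation shown above). Their nonamers were CAGAAAACC in IGHV1-72, CTGAAAACC in IGHV1-64, CCAAAACCC in IGHV1-55 and CACAAAACC in IGHV1-67. Their mean usage was 0.610 to 0.790% with a median of 0.751%. The other 20 genes, without such a run, had a mean usage of 0.0835 to 0.483% with a median of 0.270%. The ranges did not overlap, which also held without replicate 9 (0.616 to 0.725% and 0.0751 to 0.463%). This sequence feature was chosen after the ranking was known and was not tested. Outside the deleted region, 10 of 25 IGHV1 genes with an RSS at the annotated exon end contained this run, and their usage overlapped with that of the genes without it. Their median was 0.270% (0 to 0.647%), compared with 0.220% (0.0671 to 1.21%) in the other 15 genes. IGHV1-56, IGHV1-58 and IGHV1-77, which have the nonamer CAGAAACAC, were among the little used genes, with means of 0.0853 to 0.148%. The 16 genes with CAGAAACCC had means of 0.0835 to 0.483%, so that usage overlapped between these nonamers.

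**Figure D2:**
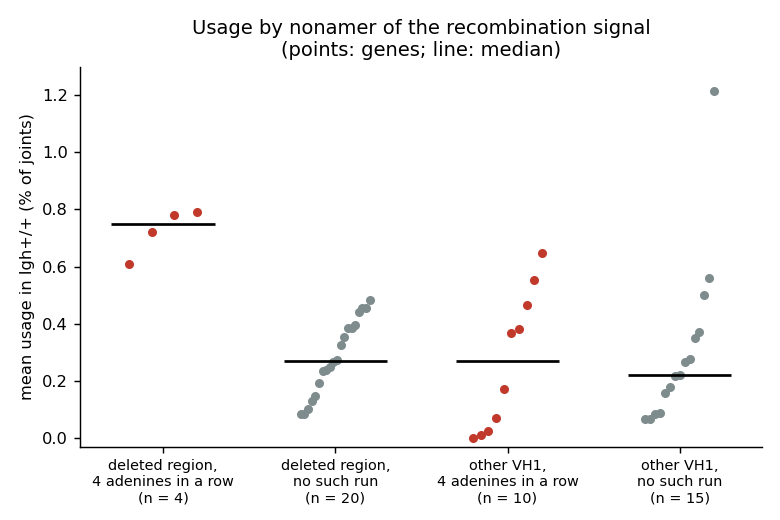
Mean usage in Igh(+/+) pro-B cells (percentage of joints) of VH1 genes with and without 4 adenines in a row in the nonamer, for 24 genes of the deleted region (left) and 25 other VH1 genes (right). Points are genes and lines are medians. The 4 genes of the deleted region with the run lie at 0.610 to 0.790%, above the other 20, whereas the 2 sets of other VH1 genes overlap.

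Close paralogs differed in usage. IGHV1-72 and IGHV1-62-3 differ at 2 of the last 290 bases of the V exon, T60A and T281C, given as the base of IGHV1-72, the position counted from the first of the 290 bases, and the base of IGHV1-62-3. Their V exons are shown because the usage of such a close pair could be set against few sequence differences. Capitals mark the differing bases.
IGHV1-72 (chr12:116996195-116996484, minus strand): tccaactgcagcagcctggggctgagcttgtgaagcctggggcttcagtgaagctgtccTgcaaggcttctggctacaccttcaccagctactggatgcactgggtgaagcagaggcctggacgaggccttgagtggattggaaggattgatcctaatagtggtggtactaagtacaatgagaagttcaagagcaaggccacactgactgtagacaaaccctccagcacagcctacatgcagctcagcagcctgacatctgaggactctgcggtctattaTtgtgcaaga
IGHV1-62-3 (chr12:116699210-116699499, minus strand): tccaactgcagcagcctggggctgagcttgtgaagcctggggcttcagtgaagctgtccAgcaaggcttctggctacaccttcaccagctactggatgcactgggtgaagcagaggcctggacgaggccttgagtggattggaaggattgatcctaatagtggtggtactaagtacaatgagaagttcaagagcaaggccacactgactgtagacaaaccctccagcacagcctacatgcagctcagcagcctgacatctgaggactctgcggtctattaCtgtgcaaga

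IGHV1-62-3 also differs from IGHV1-72 at 1 base of the RSS, with CAGAAACCC as its nonamer. The mean usage of IGHV1-62-3 was 0.239% ± 0.0554 (SD, n = 17), and the ratio of IGHV1-72 to IGHV1-62-3 had a median of 2.99 over the libraries, ranging from 2.21 to 13.2. IGHV1-72 was thus higher in each of the 17 libraries, and the widest ratio was that of replicate 9. The base at position 60 changes a TGC triplet to AGC. Of 22 genes in which the exon ends in frame before the heptamer, 21 carry TGC at this place, 77 codons from the exon end, and IGHV1-62-3 does not. This triplet encodes the first of the 2 cysteines that form the disulphide bond of the VH domain. No stop triplet was found in frame in the 22 exons. IGHV1-52 and IGHV1-61 differ at 4 of 290 bases and at 1 base of the heptamer, and their mean usage was 0.396% ± 0.128 and 0.192% ± 0.0822 (SD, n = 17).

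IGHV1-62-2 and IGHV1-71 have V exons of 302 bases and RSSs that are identical. IGHV1-62-2 was listed at 0.274% ± 0.0898 and IGHV1-71 at 0.0835% ± 0.0390 (SD, n = 17), with a ratio of 2.42 to 4.57 in single libraries (median 3.36). Reads within the exon cannot tell these genes apart, so that only their sum of 0.358% ± 0.127 is certain. The values of the other pairs also depend on how the authors assigned reads, the more so the fewer bases differ.

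Summed over the 35 genes, usage in the 17 Igh(+/+) libraries was 8.97% ± 2.99 of the joints (5.96 to 19.4%), or 17 to 24.6% of the VDJH joints. In block 1 the sums were 7.52%, 8.58% and 7.99%. In block 2 they were 7.19%, 6.46% and 9.86%, in block 3 5.96%, 7.56% and 7.63%, and in block 5 8.04% and 8.30%. Block 4 had the widest spread, with a lowest sum of 8.18%, a median of 9.84% and a highest of 19.4% in replicate 9. Replicate 9 also had the highest percentage of VDJH joints that the 35 genes took, at 24.6%, compared with at most 20.3% in the other 16 libraries.

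Within replicate 9, the genes did not move together. Of the 26 genes above 0 in all Igh(+/+) libraries, 21 were higher in replicate 9 than in any of the other 16 libraries, by a factor of 1.68 to 2.67 over the mean of the other 5 libraries of block 4. The remaining 5, IGHV1-67, IGHV1-49, IGHV1-70, IGHV1-62-3 and IGHV1-79, were below each of these 5 libraries, at 0.557 to 0.759 times their mean. IGHV1-67 was at 0.499% in replicate 9 and at 0.623 to 0.687% in the other 5 libraries of the block. IGHV1-62-3, the gene with AGC in place of TGC, was at 0.138% and at 0.205 to 0.311% in these libraries. These 5 genes are named because they were the exceptions, which was seen only in the values.

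Usage of single genes across the 5 blocks was tested in Igh(+/+) libraries by limma with an F test over all VH genes with a mean usage of at least 0.01%. None of the 26 genes of the deleted region that were tested passed an adjusted p of 0.05, and 0% of the 145 VH genes did. The smallest adjusted p of the 26 was 0.129 (limma), while 13 had an unadjusted p under 0.05, a count not made for all VH genes. The median log2 range of block means was 0.648 for the 26 genes and 0.596 for all genes tested. As a percentage of VDJH joints, 0 of 27 genes of the region and 0% of 155 VH genes passed. On that scale 5 of the 27 had an unadjusted p under 0.05 (limma). Without replicate 9, 5 of the 26 passed, compared with 12.4% of the 145 VH genes. IGHV1-72 and IGHV1-76 (adjusted p = 0.0354 for both), IGHV1-75 (0.0431), IGHV1-66 (0.0457) and IGHV1-64 (0.0487) were each highest in block 4 (limma). IGHV1-72, for example, then had block means of 0.680%, 0.660%, 0.576%, 0.893% and 0.695% in blocks 1 to 5. All VH genes together summed to 46.5 to 56.8% of the joints in these libraries of block 4. In blocks 1, 2, 3 and 5 the means of this sum were 44.3%, 43.6%, 40.1% and 42.1%. The fit without replicate 9 was not made as a percentage of VDJH joints. The blocks differ in mice and in experiment number, which cannot be told apart.

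The deletion was present in the mutant libraries by the usage of the 35 genes, which checks the labels and is no finding. The 35 genes summed to 0.121%, 0.155% and 0.140% of the joints in the 3 Igh(Δ890/Δ890) libraries. The mean of 0.139% ± 0.0171 was 57.9-fold lower than the 8.03% ± 0.530 in Igh(+/+) libraries of block 1 (SD, n = 3 each). No library of the 2 genotypes overlapped (p = 0.1 by a two-sided exact permutation test, which is its minimum with 3 libraries per group). By limma on log2(usage + 0.01), 26 of 26 genes tested were lower at an adjusted p under 0.05, compared with 61.2% of the 139 VH genes tested, and 0 of 26 were higher, compared with 5.04%. These 26 genes passed the minimum usage through the Igh(+/+) libraries, and 12 of them, IGHV1-67 and IGHV1-72 among them, were listed at 0 in all 3 Igh(Δ890/Δ890) libraries, so that the pseudocount sets their difference and no fold is given. Of the genes above 0 in the mutant, IGHV1-64 was at 0.647% in Igh(+/+) and 0.0540% in Igh(Δ890/Δ890) libraries (log2 difference -3.35, SE 0.12, adjusted p = 5.74e-08, limma). IGHV1-56 had the least negative log2 difference of the 26 (-1.45, SE 0.18, adjusted p = 0.000187, limma), with 0.0758% and 0.0216%. IGHV1-79, the gene of the deleted region nearest to its distal border, was at 0.0681% in Igh(+/+) and 0.000239% in Igh(Δ890/Δ890) libraries.

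The residual sums of the other mutant genotypes also lay far below those of Igh(+/+) libraries. They were 0.165%, 0.185% and 0.180% in Igh(P4V/P4V) and 0.182%, 0.152% and 0.163% in Igh(P4/P4) pro-B cells. In block 4 they were 0.211%, 0.189% and 0.248% in Igh(P4inv/P4inv), 0.177%, 0.138% and 0.123% in Igh(P4StopG/P4StopG) and 0.20%, 0.280% and 0.271% in Igh(EmG/EmG) pro-B cells. They were 0.147%, 0.205% and 0.199% in Igh(P4GV/P4GV) and 0.175%, 0.227% and 0.235% in Igh(P4ΔPax5GV/P4ΔPax5GV) pro-B cells. All libraries of Igh(P4V/P4V), Igh(P4inv/P4inv), Igh(EmG/EmG) and Igh(P4ΔPax5GV/P4ΔPax5GV) were above the 3 Igh(Δ890/Δ890) libraries, while the other 3 genotypes overlapped with them. As a percentage of VDJH joints, only Igh(EmG/EmG) libraries (0.57 to 0.730%) were all above the Igh(Δ890/Δ890) libraries (0.426 to 0.510%). Igh(Δ890/Δ890) was in another block than these genotypes, and genotype and block cannot be told apart. The lowest Igh(+/+) sum was 21.3-fold above the highest mutant sum, and the group means were 1.3 to 2.6% of the Igh(+/+) mean of the same block.

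Tests of these genotypes against Igh(+/+) also check the labels and are no finding, as every mutant allele lacks the 35 genes. Tested within their blocks by exact permutation tests (two-sided) on 7 genotypes, the smallest p possible was reached by each. It was 0.0238 for Igh(P4inv/P4inv), Igh(P4StopG/P4StopG) and Igh(EmG/EmG), 0.1 for Igh(P4V/P4V), Igh(P4/P4) and Igh(P4GV/P4GV) and 0.2 for Igh(P4ΔPax5GV/P4ΔPax5GV), with p-values adjusted over the 7 of 0.0556, 0.117 and 0.2. Between mutant genotypes of 1 block, 4 pairs were compared. Igh(P4StopG/P4StopG) libraries had lower sums than Igh(P4inv/P4inv) libraries, with a mean of 0.146% ± 0.0281 compared with 0.216% ± 0.0297, and lower sums than Igh(EmG/EmG) libraries with 0.250% ± 0.0435 (SD, n = 3 each). In both pairs the libraries did not overlap (exact permutation test, p = 0.1, the smallest p possible, 0.2 after adjustment over 4 pairs). As a percentage of VDJH joints, however, both pairs overlapped, with Igh(P4StopG/P4StopG) at 0.605%, 0.363% and 0.322%, Igh(P4inv/P4inv) at 0.481 to 0.542% (exact permutation test, p = 0.4) and Igh(EmG/EmG) at 0.57 to 0.730% (exact permutation test, p = 0.2). Igh(P4V/P4V) and Igh(P4/P4) overlapped (exact permutation test, p = 0.4), as did Igh(P4inv/P4inv) and Igh(EmG/EmG) (p = 0.3, exact permutation test). The latter pair did not overlap as a percentage of VDJH joints (exact permutation test, p = 0.1, 0.4 after adjustment), so that the overlap of these genotypes depends on the scale. Igh(P4StopG/P4StopG) replicates 2 and 3 and Igh(P4ΔPax5GV/P4ΔPax5GV) replicate 1 differed in another respect. Their smallest value above 0 was 0.00399%, 0.00280% and 0.00685%, compared with 0.00072 to 0.00138% in the other mutant libraries, and only 6, 6 and 4 of the 35 genes were above 0 in them. Their steps, 0.00199%, 0.00140% and 0.00342%, were also above those of the other 38 libraries (0.000312 to 0.000692%), so that these 3 libraries were shallower and low residual values could be missed in them. The part of depth in the residual sums was not tested.

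**Figure D3:**
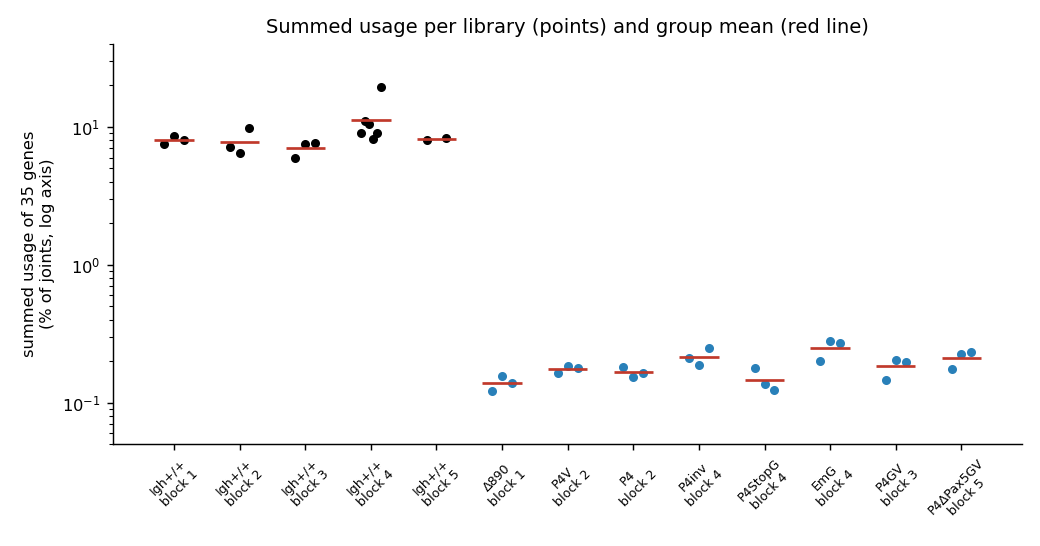
Summed usage of the 35 VH1 genes per library (percentage of joints, log axis), by genotype and block. Points are libraries (Igh(+/+) in black, mutants in blue) and red lines are group means. Igh(+/+) libraries lie at 5.96 to 19.4% and mutant libraries at 0.121 to 0.280%.

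The residual signal was not spread over the genes in proportion to their usage in Igh(+/+) pro-B cells. IGHV1-64 ranged from 0.0239% through a median of 0.0665% to 0.113% in the 24 mutant libraries, IGHV1-69 from 0.0153% through 0.0411% to 0.0857%, and IGHV1-56 from 0.00840% through 0.0260% to 0.0483%. These 3 genes, which had the highest means in Igh(Δ890/Δ890) libraries, were above 0 in each of the 24 libraries and together made up 73.8% ± 4.82 of the residual sum (SD, n = 24, 64.9 to 81.8%). In the 17 Igh(+/+) libraries they made up 14.4% ± 0.997 of the sum (12.7 to 17%). The ranges did not overlap, and in the 21 libraries of the other mutant genotypes the share was 73.1% ± 4.69 (SD). IGHV1-64 has a high usage in Igh(+/+) pro-B cells, whereas IGHV1-56 is in place 24 of 28 there. In the mutants, the mean of IGHV1-56 was 30.4% of its Igh(+/+) mean, while those of IGHV1-69 and IGHV1-64 were 9.61% and 8.77%. Across the 28 used genes, rho between the Igh(+/+) mean and the mutant mean was 0.268 (n = 28 genes).

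IGHV1-72, the gene first in the Igh(+/+) order, was at 0 in 22 of the 24 mutant libraries and at most 0.00580% in the others. IGHV1-67 was at 0 in all 24. IGHV1-55 was above 0 in 14 libraries, with a mean of 0.152% of its Igh(+/+) mean. Of the 4 genes that led in Igh(+/+) pro-B cells, only IGHV1-64 was therefore seen in every mutant library. IGHV1-74, with a mean of 0.0139%, was also above 0 in all 24 libraries, IGHV1-52 (0.0110%) in 23, IGHV1-50 (0.00425%) in 21, and IGHV1-54 (0.00651%) and IGHV1-77 (0.00445%) in 20 each. In all, 20 genes were above 0 in at least 1 mutant library. The 8 genes that were used in Igh(+/+) pro-B cells and at 0 in every mutant library were IGHV1-67, IGHV1-76, IGHV1-70, IGHV1-62-3, IGHV1-58, IGHV1-66, IGHV1-48 and IGHV1-51, and the 7 genes at 0 in Igh(+/+) libraries were at 0 in the mutants as well. IGHV1-75 and IGHV1-61 were above 0 in 18 and 19 libraries, with means of 0.00237% and 0.00209%. The other 10 of the 20 genes, IGHV1-55 and IGHV1-72 among them, had means of at most 0.00110%.

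**Figure D4:**
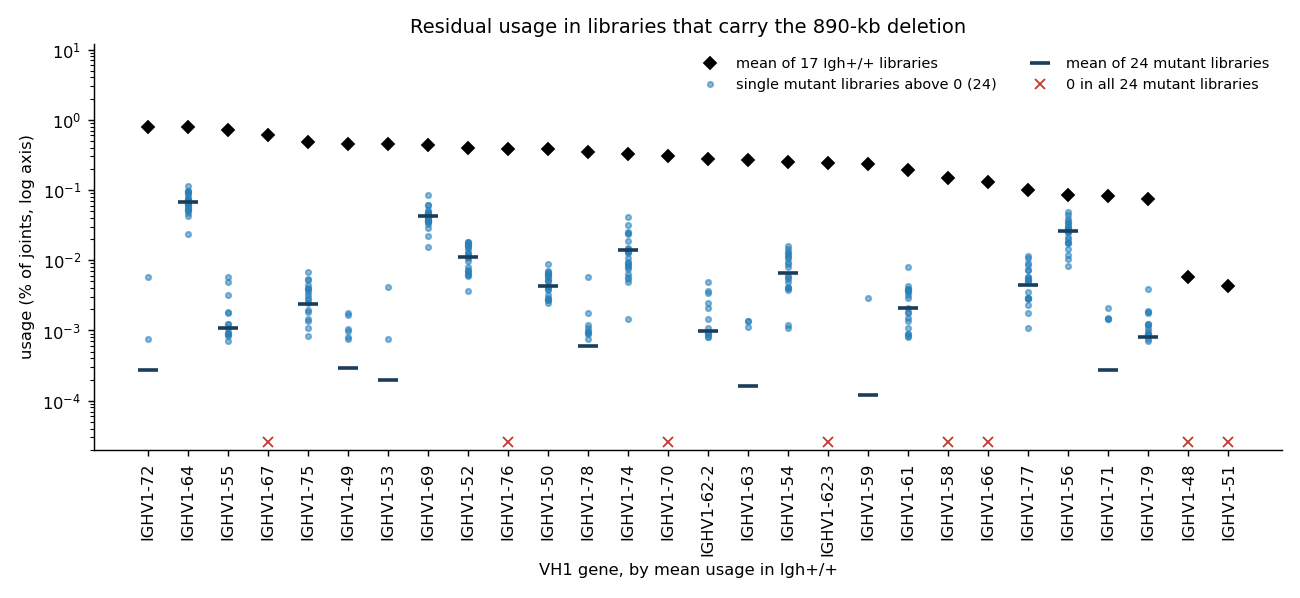
Usage (percentage of joints, log axis) of the 28 used VH1 genes of the deleted region, ordered by mean usage in Igh(+/+) pro-B cells. Black diamonds are means of 17 Igh(+/+) libraries, blue points are mutant libraries above 0, bars are means of 24 mutant libraries and red crosses mark genes at 0 in all of them. IGHV1-64, IGHV1-69 and IGHV1-56 stand out with mutant means of 0.0684%, 0.0425% and 0.0259%, while IGHV1-67 is at 0.

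The same 3 genes had the highest means in each of the 8 mutant genotypes, and were the 3 highest in 18 of the 24 libraries. In the Igh(Δ890/Δ890) libraries, IGHV1-64 was at 0.0567%, 0.0526% and 0.0526%, IGHV1-69 at 0.0223%, 0.0375% and 0.0406%, and IGHV1-56 at 0.0183%, 0.0288% and 0.0177%. Values of the other genes were lower, with means of 0.00841% for IGHV1-74, 0.00840% for IGHV1-52 and 0.00521% for IGHV1-50, which were above 0 in all 3 libraries. IGHV1-77, IGHV1-61, IGHV1-49 and IGHV1-54 had means of 0.00290%, 0.00135%, 0.000824% and 0.000761%, each from 2 of the 3 libraries. Altogether, 14 of the 35 genes were above 0 in at least 1 of these libraries and 6 in all 3. Genes of the VH8 family lie between the VH1 genes of the region and were also looked at. The 14 listed VH8 genes of the deleted region, IGHV8-3 to IGHV8-16, summed to 0%, 0.00250% and 0.00241% in Igh(Δ890/Δ890) libraries, compared with 1.77 to 1.97% in the Igh(+/+) libraries of block 1. IGHV1-47 and IGHV1-80, the VH1 genes next to the deletion on either side that the allele retains, had means of 0.188% ± 0.0462 and 0.0794% ± 0.0394 (SD, n = 3) in these mutant libraries.

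**Figure D5:**
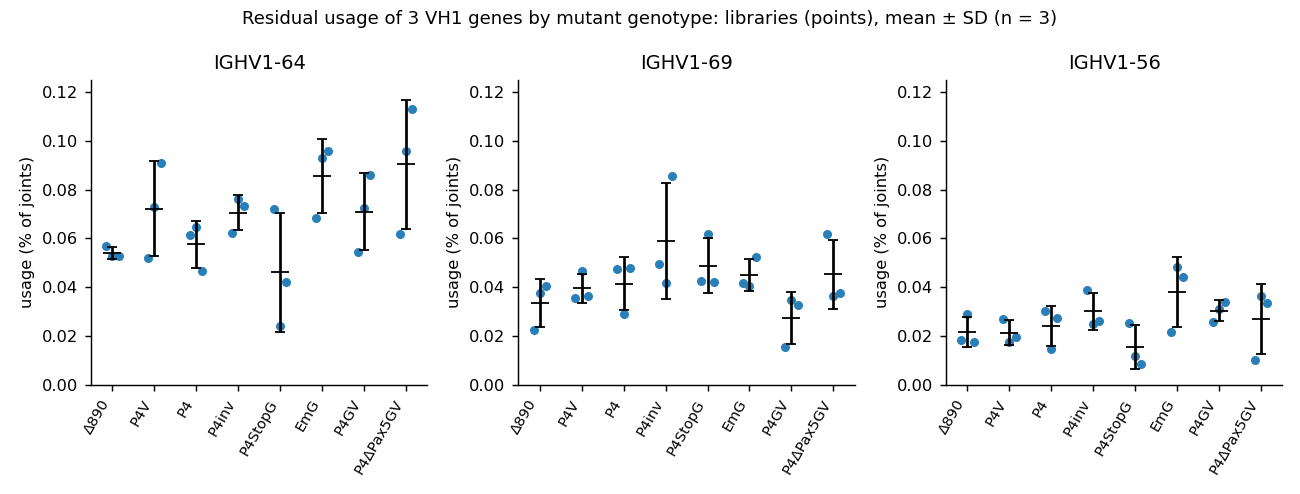
Usage (percentage of joints) of IGHV1-64, IGHV1-69 and IGHV1-56 in the 8 mutant genotypes. Points are libraries and black lines are the mean and SD (n = 3). IGHV1-64 lies between 0.0239 and 0.113% and IGHV1-56 between 0.00840 and 0.0483%, and the ranges of most genotypes overlap.

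The V exons of IGHV1-64 and IGHV1-56 are shown with that of IGHV1-83, which is the nearest to both among 75 VH genes outside the deleted region (mm9). They are shown because the 2 genes carry most of the residual signal together with IGHV1-69. Capitals mark the bases of the last 290 at which IGHV1-64 or IGHV1-56 differs from IGHV1-83.
IGHV1-64 (chr12:116745756-116746045, minus strand): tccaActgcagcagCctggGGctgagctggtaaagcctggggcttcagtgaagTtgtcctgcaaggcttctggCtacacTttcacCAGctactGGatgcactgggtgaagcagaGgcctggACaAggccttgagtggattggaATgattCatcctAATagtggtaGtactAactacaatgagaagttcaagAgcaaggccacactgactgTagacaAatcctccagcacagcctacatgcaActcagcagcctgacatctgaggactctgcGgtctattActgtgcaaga
IGHV1-56 (chr12:116481013-116481302, minus strand): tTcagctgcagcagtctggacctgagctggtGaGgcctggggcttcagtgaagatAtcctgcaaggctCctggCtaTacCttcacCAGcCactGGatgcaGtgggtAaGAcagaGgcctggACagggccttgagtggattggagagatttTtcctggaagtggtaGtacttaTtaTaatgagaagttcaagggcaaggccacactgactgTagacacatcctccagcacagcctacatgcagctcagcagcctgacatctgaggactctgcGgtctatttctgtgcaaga
IGHV1-83 (chr12:117202028-117202317, minus strand): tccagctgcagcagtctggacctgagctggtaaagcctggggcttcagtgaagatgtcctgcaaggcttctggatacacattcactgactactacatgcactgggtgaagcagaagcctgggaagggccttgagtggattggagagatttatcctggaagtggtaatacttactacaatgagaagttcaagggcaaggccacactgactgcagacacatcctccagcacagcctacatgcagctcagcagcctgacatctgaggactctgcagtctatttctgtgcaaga

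IGHV1-64 differs from IGHV1-83 at 30 bases (89.7% identity) and IGHV1-56 at 27 (90.7%). IGHV1-69 was nearest to IGHV1-80, with 88.6% identity. Over the 24 genes with an RSS, the identity to the nearest retained gene had a median of 89.0% and ranged from 81.4% to 96.2%. The 3 genes with the most residual signal were near the middle of this range. Only the 75 retained genes matched in the mm9 annotation were compared, while the VDJ-seq files name 253 VH genes in all. IGHV1-75 (96.2%) and IGHV1-66 (95.5%), the genes most like a retained gene, had a mutant mean of 0.00237% and 0 in all 24 libraries. The part of read assignment between close paralogs in the residual signal was not tested.

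The mRNA of the genes was measured by RNA-seq in sorted IgMb immature B cells, in 2 libraries labelled Igh(Δ890/+) and 3 labelled Igh(P4V/P4V). The IgMb isotype is encoded by the C57BL/6 allele that carries the deletion. The study describes both as heterozygous mice whose other Igh allele is from another strain and without the deletion, and the labels of the latter differ from this. Values are in TPM. Of the 35 genes, 25 were listed, and they summed to 36.5 and 36.7 TPM in Igh(Δ890/+) and to 34.5, 50.8 and 31.9 TPM in Igh(P4V/P4V) libraries. This was 0.433 to 0.569% of the TPM of the 113 listed Ighv genes. B-lineage markers (5 listed of 6) summed to 17974 to 19659 TPM, T cell markers to 6.01 to 9.76, pro-B and pre-B cell markers to 48.8 to 153, plasma cell markers to 176 to 218, erythroid markers (1 listed of 3) to 23.7 to 30.6 and myeloid markers to 1188 to 2702 TPM. None of these markers passed the test between the groups, and their part in the values was not tested.

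Ighv1-67 and Ighv1-64 had the highest mRNA values. The C57BL/6 allele that encodes IgMb lacks both genes, and by the study the other Igh allele is without the deletion. From which allele or which cells these reads came was not tested. The number of cells with such mRNA and the RNA per cell cannot be told apart either. Ighv1-67 was at 9.60 and 10.4 TPM in Igh(Δ890/+) and at 10.2, 12.7 and 6.0 TPM in Igh(P4V/P4V) libraries. Ighv1-64 was at 4.77 and 3.86 TPM and at 6.38, 4.76 and 6.17 TPM, respectively. The groups overlapped for both genes. Ighv1-54 (mean of 4.10 TPM), Ighv1-55 (3.11), Ighv1-66 (3.07), Ighv1-53 (2.31), Ighv1-63 (2.05), Ighv1-73 (1.71), Ighv1-56 (1.64) and Ighv1-78 (1.31) followed. These 10 genes passed the minimum mean of 1 TPM, and 0 of them differed between the groups by limma on log2(TPM + 1), compared with 0.00856% of the 11681 genes tested. None of the 10 had an unadjusted p under 0.05. The log2 difference of Ighv1-64 was 0.35 (SE 0.15, adjusted p = 0.893, limma). Ighv1-67, at 0 in every VDJ-seq library of homozygous mutant pro-B cells, had the highest mRNA value of the 25 genes. The mRNA is of immature B cells from mice that the study describes as heterozygous, so that genotype, cell stage and molecule differ between these values. Ighv1-72, Ighv1-62-3, Ighv1-62-2, Ighv1-71 and Ighv1-61 were listed at 0 in all 5 libraries. Each of them has a near-identical copy among the 35 genes, and the authors counted only reads that map to 1 place. These values therefore do not show an absence of transcripts, and the part of read mapping in them was not tested. Ighv1-52, which differs from Ighv1-61 at 4 of 290 bases, was listed at up to 0.243 TPM.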

How the data were processed

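VDJ-seq libraries of ex vivo-sorted pro-B cells and RNA-seq libraries of sorted IgMb immature B cells were analysed. The authors prepared VDJ-seq libraries from sheared genomic DNA with adapters that carry molecular identifiers and primers in the JH segments, followed by paired-end sequencing. The deposited values are percentages, for each VH gene, of all unique VDJH and DJH joints of a library. For RNA-seq, the authors counted reads that map to 1 place with featureCounts and deposited TPM values, and 4 entries in 1 library and 1 in another held no value. Per the labels, the submitters' processing notes also name R 3.3.3, Bowtie 0.12.5, STAR 2.4.2 and featureCounts 1.5.0, and the builds mm9 and mm10. The files used here list no numbers of joints or reads. The step of which all values of a VDJ-seq library are whole multiples gives only relative depth and differed 11.0-fold between libraries, and each error is a spread between mice.

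The analysis comprised 41 of 48 VDJ-seq libraries. Left out were Igh(+/+) replicates 16, 19 and 20, Igh(P4GV/P4GV) replicate 4 and the 3 libraries labelled Igh(P4ΔCtftGV/P4ΔCtftGV). In 3 pairs of them the values were identical under conflicting genotype labels, and Igh(+/+) replicate 19 is listed under another genotype in the source data of the study. Replicates were numbered in accession order, and blocks are runs of consecutive experiment numbers. Summed usage was compared by two-sided exact permutation tests, with Benjamini-Hochberg adjustment over genotypes or pairs. Single genes were tested with limma 3.58.1 in R 4.3.3 (eBayes with trend, Benjamini-Hochberg adjustment over all genes tested, threshold 0.05), on log2(usage + 0.01) over VH genes with a mean usage of at least 0.01% and on log2(TPM + 1) over genes of at least 1 TPM on average. These scales understate the change of genes with low values. The limma fits were tested on simulated data. Other settings were other pseudocounts, no filter, no trend, usage as a percentage of VDJH joints, other sets of Igh(+/+) libraries and the omission of single libraries. The values without Igh(+/+) replicate 9 were computed after the data were seen.

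V exons and RSSs were read from the NCBIM37 (mm9) genome by the GENCODE vM1 annotation, in which 26 of the 35 genes were matched by symbol or synonym, and compared by global alignment with Biopython 1.88. IGHV1-48, IGHV1-51, IGHV1-57, IGHV1-60, IGHV1-62, IGHV1-65, IGHV1-68, IGHV1-70 and IGHV1-79 were not matched. Gene types and starts in mm10 are from RefSeq. Named were the 10 genes with the highest mean usage in Igh(+/+), those at 0 in every Igh(+/+) library, up to 10 with the highest usage in Igh(Δ890/Δ890), the border genes IGHV1-48 and IGHV1-79, up to 5 with the smallest adjusted p in each limma comparison, and the 10 with the highest mean TPM. Pairs of close paralogs, genes with particular nonamers, genes at 0 in the mutants, neighbours in the order and genes outlying in replicate 9 were named after their values were seen. The genes and lists were chosen with earlier results of these data known.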

Additional observations from a re-analysis of the deposited data

Results flagged for a closer look

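Igh(+/+) replicate 9 lay far from the other 5 libraries of block 4 in 14 of the 23 values that were examined in this block (Dixon's test at the 95% level), of which chance gives about 1 in 20. The values come from 1 library and are not independent. The summed usage of the 35 genes was 19.4% in this library, compared with 11.1% in the nearest library, and the VH genes summed to 78.8% of the joints, compared with 56.8%. Of single genes, IGHV1-64 was at 2.14% (1.01% in the nearest library), IGHV1-55 at 2.02% (0.917%), IGHV1-75 at 1.36% (0.596%) and IGHV1-76 at 1.12% (0.485%). IGHV1-69 was at 0.954%, IGHV1-50 at 0.935%, IGHV1-74 at 0.874%, IGHV1-52 at 0.835%, IGHV1-54 at 0.549%, IGHV1-61 at 0.492% and IGHV1-56 at 0.196%, each of them above the other 5 libraries. IGHV1-67 differed in direction, with 0.499% compared with 0.623% in the nearest of the other libraries. The labels give no feature of this mouse or library that sets it apart.

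In a library left out of the comparisons, the 1 labelled Igh(P4ΔCtftGV/P4ΔCtftGV) replicate 1, the 35 genes summed to 7.34% of the joints, although the label names an allele with the deletion. The highest sum in the 24 mutant libraries used was 0.280%. Its values are identical to those of the library labelled Igh(+/+) replicate 16. The libraries labelled Igh(+/+) replicates 19 and 20 summed to 0.150% and 0.216%, within the range of the mutant libraries. These 3 labels and the usage of the 35 genes are at odds.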

How the results depend on the processing

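With Igh(+/+) libraries of all blocks as controls, the difference in summed usage (mutant minus Igh(+/+), percentage points) was past the threshold for each genotype (exact permutation test, p = 0.00175). As the mutant alleles lack these genes, tests against Igh(+/+) check the labels and are no finding. The difference was -8.83 for Igh(Δ890/Δ890), -8.79 for Igh(P4V/P4V), -8.80 for Igh(P4/P4), -8.78 for Igh(P4GV/P4GV), -8.75 for Igh(P4inv/P4inv), -8.82 for Igh(P4StopG/P4StopG), -8.72 for Igh(EmG/EmG) and -8.76 for Igh(P4ΔPax5GV/P4ΔPax5GV). In a setting added after the data were seen, each shared file was kept once under the genotype of the source data. The difference was then -7.28 for Igh(P4GV/P4GV) (4 against 6 libraries, p = 0.00952, adjusted p = 0.0476, exact permutation test). These libraries are of blocks 3 and 5, which the permutation did not keep apart. Igh(P4inv/P4inv) (-11.0), Igh(P4StopG/P4StopG) (-11.1) and Igh(EmG/EmG) (-11.0) kept their libraries, differences and p of 0.0238, and their adjusted p moved from 0.0556 to 0.0476 (exact permutation test) with the p of Igh(P4GV/P4GV), over which it is adjusted. Igh(P4ΔCtftGV/P4ΔCtftGV) differed from Igh(+/+) by -2.22 with the libraries as labelled (exact permutation test, p = 0.5) and by -7.68 with the 1 library of the source data (exact permutation test, p = 0.5, the smallest p that 1 library against 3 allows). Igh(P4ΔPax5GV/P4ΔPax5GV) minus Igh(P4ΔCtftGV/P4ΔCtftGV) was -2.37 (exact permutation test, p = 0.6) and -0.00401 (exact permutation test, p = 1.0). The number of the 26 genes that differed between blocks of Igh(+/+) libraries was 0 to 5 with single libraries left out, with 5 without Igh(+/+) replicate 9 and 0 under the other settings. With single mRNA libraries left out, the log2 difference changed sign for Ighv1-67 (-0.31 to 0.17), Ighv1-66 (-0.41 to 0.19), Ighv1-53 (-0.28 to 0.081), Ighv1-73 (-0.62 to 0.32), Ighv1-56 (-0.24 to 0.30) and Ighv1-78 (-0.65 to 0.46), none of which passed the threshold in any of these fits (limma). The causes of the changes of sign were not tested. Of 36 results with alternatives, 21 were rated the same under every alternative. For counts of genes this means a count close to the main one, and otherwise the same direction and call. No paired analysis was possible because no label gives a number by which mice of different genotypes could be paired. The number of joints, of which only relative values are known, limits the values near the smallest value that a library lists, and 3 libraries per group limit the permutation tests.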
